A study of Mus musculus with 12 samples.

Results

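The annexins and S100 proteins described here are 10 mouse genes, Anxa1, Anxa2, Anxa3, Anxa4, Anxa5, S100a1, S100a6, S100a10, S100a11 and S100g, taken by symbol from the 23420 genes of the count table. All 10 were in the table, and all 10 passed the filter on low counts that left 11664 genes for testing. The study sequenced kidney RNA of male C57BL/6J mice aged 8 to 15 weeks, with 4 kidneys in each of 3 groups, and compared renal ischemia in conscious and in anaesthetised animals. The control kidneys were removed at nephrectomy, without ischemia by the study's methods (whether from the mice of the other groups is not given), although their labels carry the treatment text of the other kidneys, 20 min of ischemia and 24 h until collection. The 8 ischemic kidneys were clamped at the pedicle for 20 min and taken after 24 h of reperfusion. Their labels contradict each other. Set A has titles with ISCH_ANESTH and the group field "ISCHEMIA conscious", and set B has titles with ISCH_CONCIOUS and the group field "ISCHEMIA anesthesia". The sets are therefore compared under neutral names, and no difference between them is assigned to anaesthesia. In the study's methods, anaesthesia was ketamine with xylazine, and the conscious mice were briefly sedated with isoflurane to close and open the clamp. The clamp surgery is described both with and without removal of the other kidney, and which applied to the sequenced mice is not given. Where the other kidney was removed, its loss and ischemia cannot be told apart in the comparisons with control. The methods also describe earlier surgery to place the clamp under ketamine with xylazine, buprenorphine injections and a warmed incubator. Whether the controls had any of these is not stated there. Where they did not, these treatments and ischemia cannot be told apart either.

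Annexins are cytosolic proteins that bind phospholipid membranes when calcium rises, and several of them gather at torn plasma membrane during repair. S100 proteins are small EF-hand calcium sensors that act mostly as dimers, and some of them bind an annexin: S100A10 forms a heterotetramer with annexin A2, S100A11 binds annexin A1, and S100A6 binds annexin A11. S100g encodes calbindin-D9k, which carries calcium through cells of the distal nephron.

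Total counts per kidney lay between 15367342 and 44793350. Levels below are CPM, the counts scaled to the TMM-adjusted size of each library, and 3 counts, taken as the detection floor, correspond to between 0.0661 and 0.190 CPM. A listed 0 is not proof of absence, since Rpl26, Rpl30, Rpl34 and Rps27, of 80 ribosomal protein genes, are also listed at 0 in all 12 kidneys. The proximal tubule markers summed to 6402 to 7159 CPM in the control kidneys, 667 to 1234 CPM for set A and 378 to 1293 CPM for set B, which goes with the labelled tissue in the controls. In bulk tissue, fewer cells of a type and less RNA per cell cannot be told apart, and this holds for every level below.

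Of the 10 genes, 7 were higher than control for set A and 7 for set B (edgeR's quasi-likelihood test, Benjamini-Hochberg adjusted p below 0.05). None was lower in either comparison, 0 at an unadjusted p below 0.05 and 0 with DESeq2. Over all genes tested, 10.5% were called higher and 11.7% lower for set A (22.3% in all). For set B these shares were 10.9% higher, 11.9% lower and 22.8% in all. The same 7 genes were called in both sets: all 5 annexins, S100a6 and S100a10. The median log2 fold change of the 10 genes was 1.98 for set A and 2.17 for set B, against -0.02 in both over all genes tested. The comparisons share the 4 control kidneys and are not independent. The 4 kidneys of set A lay above all 4 controls for 7 genes (12.6% of all genes tested), and those of set B for 6 genes (11.6% of all genes). None of the 10 genes was called between set B and set A, where 1 gene of all tested was called (0.00857%). That gene, Slc5a12, a sodium-coupled monocarboxylate transporter named here after its values were seen, was higher for set B by 1.85 ± 0.28 on the log2 scale (adjusted p = 0.0328). Since titles and group fields name opposite conditions, this direction cannot be assigned to conscious or anaesthetised animals from the labels. No gene was called between the sets with limma-trend, with only the 2 groups fitted, or after 10 of the 12 removals of a single kidney. Only 1 of the 10, S100a6, reached an unadjusted p below 0.05 in this comparison, and DESeq2 called 0.

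**Figure D1:**
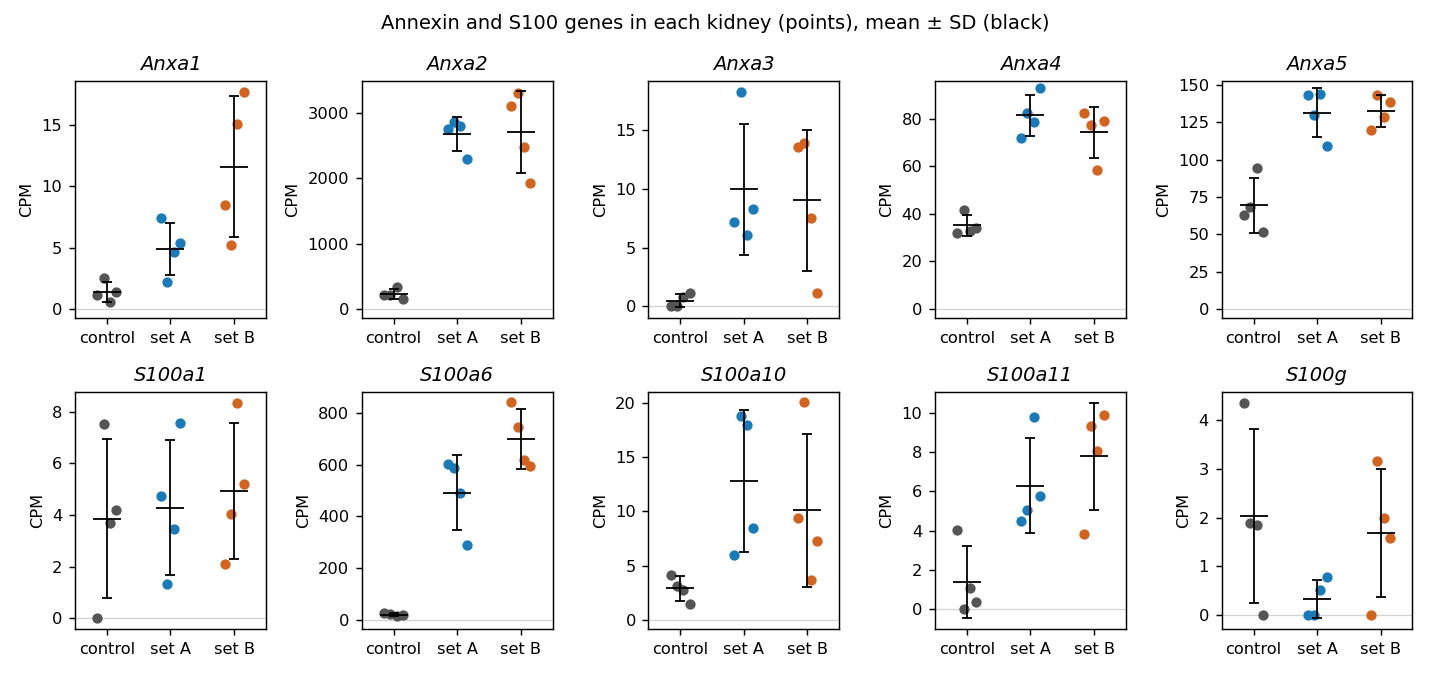
Level of each annexin and S100 gene in CPM (linear axis, different in each panel) in the control kidneys, ischemia set A and ischemia set B, with 1 point per kidney and the mean ± SD of 4 kidneys in black. The Anxa2 points lie at 158 to 330.5 CPM among the controls and at 1927 to 3306 CPM among the ischemic kidneys, while the S100a1 points of the 3 groups overlap.

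Anxa2 and S100a6 took the most counts of the 10 genes after ischemia. Their promoters are shown with that of S100a11, which contains the most AP-1 matches of the 8 members with a promoter in the table, and that of S100g, whose level went the other way for set A without passing the test. The sequences are RefSeq gene starts on GRCm38.p6, 5′ to 3′ on the gene's strand, ending at the base before the annotated transcript start. Capitals mark the AP-1 motif TGANTCA, which reads alike on both strands and is the site that Fos and Jun dimers bind.
Anxa2 (chr9:69453433-69453619, + strand): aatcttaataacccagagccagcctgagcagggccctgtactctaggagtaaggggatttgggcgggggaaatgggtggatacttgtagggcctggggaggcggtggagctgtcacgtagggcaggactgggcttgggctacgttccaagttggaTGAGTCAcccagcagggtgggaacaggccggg
S100a6 (chr3:90612644-90612881, + strand): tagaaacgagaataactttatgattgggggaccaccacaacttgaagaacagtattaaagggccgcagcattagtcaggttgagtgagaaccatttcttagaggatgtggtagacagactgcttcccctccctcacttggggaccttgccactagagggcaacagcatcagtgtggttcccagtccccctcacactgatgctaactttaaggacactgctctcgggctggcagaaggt
S100a11 (chr3:93520246-93520487, + strand): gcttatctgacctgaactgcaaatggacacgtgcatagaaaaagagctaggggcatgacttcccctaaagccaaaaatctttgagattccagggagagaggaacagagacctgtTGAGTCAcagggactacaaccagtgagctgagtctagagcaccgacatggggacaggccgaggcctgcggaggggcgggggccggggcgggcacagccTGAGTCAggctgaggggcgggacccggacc
S100g (chrX:162964600-162964849, - strand): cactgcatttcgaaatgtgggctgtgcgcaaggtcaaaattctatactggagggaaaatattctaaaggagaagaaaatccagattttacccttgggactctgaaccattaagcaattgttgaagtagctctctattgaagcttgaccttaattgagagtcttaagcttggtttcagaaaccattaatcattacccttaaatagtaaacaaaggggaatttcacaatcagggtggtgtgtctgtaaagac

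The Anxa2 promoter holds 1 match, 95 bases before the RefSeq start, and the S100a11 promoter holds 2, at 136 and 38 bases before it. The S100a6 and S100g sequences hold none. Promoters were found for 8 of the 10 genes, as 9 windows because Anxa4 has 2 starts, and the motif was in 2 of the 9 (22.2%) against 2217 of 32851 windows in the table (6.75%). The search covered the 250 bases before the RefSeq start in every window, and the sequences printed end earlier where the annotated transcript begins upstream of that start. The GC box GGGCGG was in 2 of the 9 windows against 32.7% of all, and the TATA box TATAAA in 2 of the 9 against 12.4%, with both strands searched. These are matches of letters, and the windows with an AP-1 match belong to 1 gene that was called and 1 that was not.

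Anxa2 encodes the annexin that links membrane to cortical actin and holds plasminogen at the cell surface with S100A10. It lies on chromosome 9 (mm10, 69453620 to 69491795, + strand). The control kidneys, in the order of their numbers, had 215, 220.3, 330.5 and 158 CPM. The kidneys of set A had 2745, 2862, 2791 and 2292 CPM, and those of set B 3097, 3306, 2473 and 1927 CPM. Every ischemic kidney lay far above every control, and the sets overlapped. The log2 fold change was 3.53 ± 0.20 (SE) for set A (11.6-fold, adjusted p = 2.00e-10) and 3.55 ± 0.20 for set B (11.7-fold, adjusted p = 2.29e-10). Set B differed from set A by 0.02 ± 0.18 on the log2 scale, an unadjusted p of 0.935 in the same test.

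S100a6 encodes calcyclin, an S100 protein of proliferating epithelial and mesenchymal cells, on chromosome 3 (90612882 to 90624181, + strand). Its control levels were 26.7, 20.9, 14.5 and 18.7 CPM. Set A had 601, 589, 489 and 289 CPM, and set B had 841, 745, 617 and 596 CPM. The rise was 24.4-fold for set A (log2 4.61 ± 0.24, adjusted p = 8.74e-11) and 34.7-fold for set B (log2 5.12 ± 0.24, adjusted p = 4.56e-11). Between the sets, 3 of the 4 kidneys of set B were above all of set A, and the lowest of set B lay just under the highest of set A. The difference of 0.51 ± 0.20 had an unadjusted p of 0.0215 and an adjusted p of 0.941, and 5.03% of all genes tested had an unadjusted p below 0.05 there.

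Anxa4 and Anxa5 had smaller rises with little spread. Anxa4, an annexin of the epithelial plasma membrane on chromosome 6 (86736840 to 86793584, - strand), had 32.1, 41.6, 32.9 and 34.0 CPM in the controls. It had 72.1, 82.5, 78.5 and 92.7 CPM for set A and 82.4, 77.3, 58.6 and 79.0 CPM for set B. No ischemic kidney fell within the control range. The log2 fold changes were 1.21 ± 0.18 for set A (2.32-fold, adjusted p = 3.03e-05) and 1.08 ± 0.18 for set B (2.11-fold, adjusted p = 0.000109).

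Anxa5 encodes the annexin that binds exposed phosphatidylserine and forms lattices over membrane tears. It lies on chromosome 3 (36448923 to 36475894, - strand). Its levels were 62.9, 68.5, 94.3 and 51.5 CPM in the controls, 143, 129.8, 144 and 109 CPM for set A, and 119.6, 143, 129 and 138 CPM for set B. Both sets lay above all controls, although control 3 came close to the lowest ischemic kidney, and the sets overlapped each other. The log2 fold changes were 0.92 ± 0.17 (1.90-fold, adjusted p = 0.000497) and 0.94 ± 0.17 (1.91-fold, adjusted p = 0.000447).

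Anxa1, whose protein restrains neutrophil entry through formyl peptide receptors, was scarce. It lies on chromosome 19 (20373428 to 20390944, - strand). The controls had 1.15, 2.5, 0.54 and 1.36 CPM, set A had 7.40, 2.23, 4.67 and 5.36 CPM, and set B had 8.49, 5.19, 15 and 17.7 CPM. The second kidney of set A lay below the second control, while set B lay wholly above the controls. In set B the log2 fold change was 3.06 ± 0.67 (8.31-fold, adjusted p = 0.00189). In set A it was 1.82 ± 0.64 (3.52-fold, adjusted p = 0.0467), and this call was lost without any of 10 of the 12 kidneys in turn, all but the second control and the second kidney of set A, with an adjusted p of up to 0.135. The difference of set B from set A was 1.24 ± 0.62 on the log2 scale, with an unadjusted p of 0.0615 and overlapping kidneys.

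Anxa3, an annexin found in phagocytes and in injured epithelium, was listed at 0 in 2 of the 4 controls. It lies on chromosome 5 (96793339 to 96845966, + strand) and had 0, 0, 0.81 and 1.12 CPM in the controls, from 0, 0, 21 and 43 counts. Set A had 7.14, 18.2, 6.10 and 8.25 CPM, and set B had 13.5, 13.9, 7.54 and 1.14 CPM. The fourth kidney of set B was barely above the highest control, and the other 7 ischemic kidneys were at least 6.10 CPM. The log2 fold changes were 4.33 ± 1.09 for set A (adjusted p = 0.00633) and 4.19 ± 1.09 for set B (adjusted p = 0.00762), with wide errors. Leaving out 1 kidney at a time moved them from 3.86 to 5.204 for set A and from 3.77 to 5.06 for set B, highest in both without the fourth control. The controls hold 2 kidneys listed at 0, and the kidneys of set B spread from 1.14 to 13.9 CPM.

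S100a10, the partner of annexin A2, lies on chromosome 3 (93555080 to 93564643, + strand). Its controls had 4.17, 3.15, 2.78 and 1.46 CPM, set A had 6.00, 18.8, 18.0 and 8.49 CPM, and set B had 9.43, 20.1, 3.68 and 7.24 CPM. Set A lay above the controls, and the third kidney of set B lay within them. The log2 fold change was 2.15 ± 0.57 for set A (4.44-fold, adjusted p = 0.00936) and 1.81 ± 0.57 for set B (3.50-fold, adjusted p = 0.0261). The set B call was lost without control 2, 3 or 4 (adjusted p = 0.0549, 0.0607 and 0.0833) and without the second kidney of set B (log2 1.21, adjusted p = 0.172).

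S100a11, S100a1 and S100g did not pass the test in either comparison. S100a11, the partner of annexin A1, begins upstream of S100a10 on chromosome 3 (93520488 to 93526287, + strand), 28.8 kb away. It had 4.03, 0, 1.08 and 0.34 CPM in the controls, 4.51, 5.05, 9.83 and 5.78 CPM for set A, and 3.84, 9.36, 8.08 and 9.90 CPM for set B. The first control stood near the lowest ischemic kidneys and the other 3 controls well below them. The log2 fold changes were 2.22 ± 0.99 (adjusted p = 0.124) and 2.53 ± 0.997 (adjusted p = 0.0778). Without the first control both passed, at 3.76 (adjusted p = 0.0169) and 4.04 (adjusted p = 0.0115). The gene shares 140 of the 412 windows of 100 bases in its transcript (34.0%) with the copies Gm12854 and Gm7665, so its counts depend on how reads with several matches were treated, which is not given in the sources used here. No other member shared such a window with another gene.

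S100a1, best known as a regulator of calcium release in muscle, lies 98.5 kb before S100a6 on chromosome 3 (90511034 to 90514392, - strand). It had 0, 7.54, 3.70 and 4.21 CPM in the controls, 4.73, 1.33, 3.46 and 7.59 CPM for set A, and 2.09, 4.05, 8.37 and 5.21 CPM for set B. The kidneys of the 3 groups overlap throughout. Its log2 fold changes were 0.14 ± 0.99 (adjusted p = 0.961) and 0.35 ± 0.99 (adjusted p = 0.883), with errors about the size of a 2-fold change.

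S100g lies on chromosome X (162961992 to 162964599, - strand), inside the span of Ctps2 on the opposite strand. Its counts were 91, 73, 48 and 0 in the controls, 0, 0, 23 and 13 for set A, and 0, 50, 41 and 25 for set B. As levels these were 0 to 4.36, 0 to 0.783 and 0 to 3.16 CPM, with at least 1 kidney at 0 in every group. The log2 fold changes were -2.64 ± 2.03 for set A (adjusted p = 0.440) and -0.27 ± 1.90 for set B (adjusted p = 0.959), and set B differed from set A by 2.37 ± 2.01 (unadjusted p = 0.252).

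**Figure D2:**
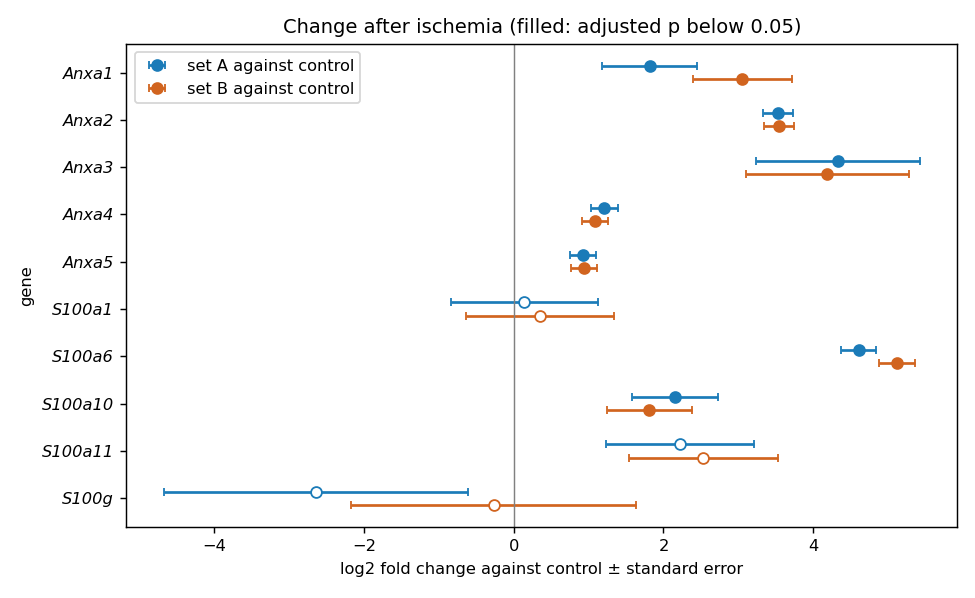
Log2 fold change of each gene for set A (blue) and set B (orange) against the control kidneys, with the standard error of the model as bars and filled points where the adjusted p is below 0.05. The 5 annexins, S100a6 and S100a10 are filled in both sets, and the open points of S100a1, S100a11 and S100g have the wide errors of low or uneven counts.

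Levels between genes were compared per kilobase of exon, as RPKM, the CPM value divided by the exon length in kilobases. This length joins all annotated exons of a gene, 3731 bases for Anxa2, 1367 for S100a6 and 1777 for Anxa5. Their longest protein-coding transcripts have 1447, 731 and 1731 bases. The overlaps between genes given below therefore depend on the length used, and other lengths were not tested. In the controls the order was Anxa2 (61.9 ± 19.3 RPKM, SD, n = 4), Anxa5 (39.0 ± 10.2 RPKM), S100a6 (14.8 ± 3.70 RPKM) and Anxa4 (7.57 ± 0.95 RPKM), and the other 6 genes averaged between 0.133 and 5.57 RPKM. Anxa2 and Anxa5 overlapped there, whereas Anxa5 and S100a6, S100a6 and Anxa4, and S100a10 and Anxa1 were neighbours whose kidneys did not overlap. After ischemia S100a6 stood above Anxa5 in both sets. In set A, Anxa2 averaged 716 ± 69.3 RPKM, S100a6 360 ± 106 RPKM and Anxa5 73.9 ± 9.20 RPKM, with no overlap between these neighbours. In set B, Anxa2 at 724 ± 168 RPKM and S100a6 at 512 ± 84.0 RPKM overlapped, and both lay above Anxa5 at 74.6 ± 5.96 RPKM. Anxa4 came next in all 3 groups, and the neighbours below it overlapped in both ischemic sets.

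The 10 genes together took 0.0363% ± 0.0082 (SD, n = 4) of all counts in the controls, with a range of 0.0266 to 0.0467%. The share was 0.344% ± 0.0443 for set A and 0.366% ± 0.0659 for set B. These are 9.47 and 10.1 times the control share, and no ischemic kidney overlapped the controls (exact permutation test, two-sided, p = 0.0286 in either case, which is the smallest that 4 kidneys against 4 allow). The sets differed by less than their spread (exact permutation p = 0.60). Anxa2 made up 58.4 to 68.4% of the counts of the 10 genes in the controls, 76.5 to 81.3% for set A and 69.2 to 76.4% for set B. S100a6 made up 3.01 to 7.61%, 10.3 to 16.7% and 17.2 to 21.4% in the same groups. The other 8 genes together took 0.00923 to 0.0133% of all counts in the controls, 0.0235 to 0.0268% for set A and 0.0237 to 0.0271% for set B.

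For the partners S100a10 and Anxa2, the ratio within a library was lower after ischemia. The log2 ratio of S100a10 to Anxa2 counts (1 added to each) was -5.67, -6.12, -6.87 and -6.73 in the controls, -8.83, -7.25, -7.28 and -8.07 for set A, and -8.35, -7.36, -9.38 and -8.04 for set B. The highest of the 8 ischemic values lay below the lowest of the 4 controls. The mean was lower by 1.51 for set A and by 1.93 for set B, with an exact permutation p of 0.0286 each. After adjustment over 9 ratio comparisons this was 0.0643, which misses the threshold. Since 0.0286 is the smallest p that 4 kidneys against 4 allow, a larger difference in a ratio already at that value could not have passed either. Per kilobase of all annotated exons, Anxa2 was 28.3 ± 10.3 times S100a10 in the controls (SD, n = 4). It was 84.0 ± 46.6 times S100a10 for set A and 116 ± 71.7 times for set B.

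Anxa11, an annexin of vesicle transport and cell division, was not called in either set. It had 181 to 241 CPM in the controls, 226 to 314 CPM for set A and 237 to 335 CPM for set B, with log2 fold changes of 0.20 ± 0.15 (adjusted p = 0.408) and 0.32 ± 0.15 (adjusted p = 0.147). The log2 ratio of S100a6 to Anxa11 averaged -3.46 ± 0.46 (SD, n = 4) in the controls, 0.92 ± 0.71 for set A and 1.36 ± 0.41 for set B, differences of 4.38 and 4.82 with an exact permutation p of 0.0286 each (0.0643 adjusted). The log2 ratio of S100a11 to Anxa1 was -1.45 ± 3.78 in the controls, where the second control has no S100a11 count, 0.41 ± 0.89 for set A and -0.51 ± 0.91 for set B. Neither set differed from control beyond the spread (exact permutation p = 0.457 and 0.743). The difference from control was 1.86 for set A and 0.95 for set B, and without the second control 0.14 and -0.77.

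**Figure D3:**
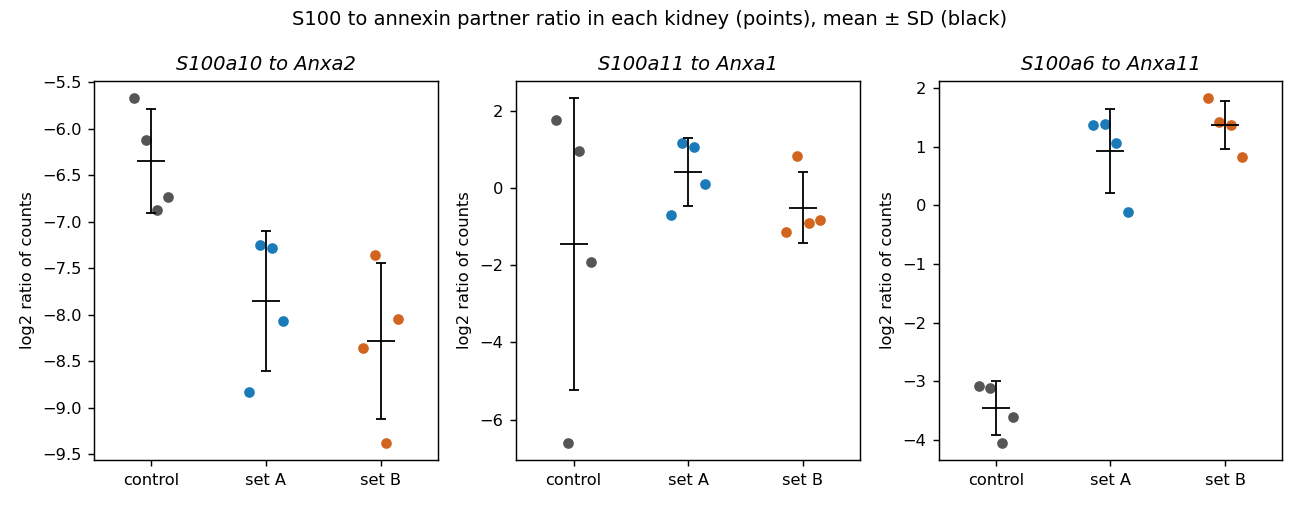
Log2 ratio of the counts of each S100 gene to those of its annexin partner, with 1 point per kidney and the mean ± SD of 4 kidneys in black. The S100a10 to Anxa2 ratio is lower in every ischemic kidney than in every control, the S100a6 to Anxa11 ratio is higher, and the S100a11 to Anxa1 ratio overlaps.

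Within the 8 ischemic kidneys, partners were also compared by correlation of log2 CPM, 3 pairs in all. S100a10 and Anxa2 had a Pearson r of 0.54 (exact permutation p = 0.164, adjusted 0.493) and a Spearman rho of 0.74 (exact permutation p = 0.0458, adjusted 0.138). The r was 0.70 without the fourth kidneys of both sets, the 2 farthest from the median of Anxa2, and 0.56 with each set centred on its mean. S100a11 and Anxa1 had an r of 0.27 (exact permutation p = 0.508, adjusted 0.508) and a rho of 0.095 (p = 0.840 by exact permutation, adjusted 1), and r was -0.23 without 2 kidneys. S100a6 and Anxa11 had an r of -0.40 (exact permutation p = 0.345, adjusted 0.508) and a rho of 0 (exact permutation p = 1), and r was 0.48 without the fourth kidneys, so its sign rests on them. With each set centred on its mean, r was -0.77, and it was -0.97 within set A and -0.52 within set B, 4 kidneys each. The permutation p of the centred r, 0.0238 before any adjustment, exchanged kidneys across the sets and is not exact for centred values. No pair passed after adjustment on the uncentred levels.

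Of the other 7 annexins, 5 were tested and 1 was called, higher in both sets. Anxa6, an annexin of the plasma membrane and endosomes, had 118 to 139 CPM in the controls, 212 to 248 CPM for set A and 191 to 335 CPM for set B, with log2 fold changes of 0.83 ± 0.15 (adjusted p = 0.000321) and 0.996 ± 0.15 (adjusted p = 5.21e-05). Anxa7, Anxa8, Anxa11 and Anxa13 did not pass, and Anxa9 and Anxa10 are listed at 0 in every kidney. Of 12 other S100 genes, 2 were tested and none was called. S100a16 had log2 fold changes of 1.47 ± 0.81 (adjusted p = 0.241) and 2.05 ± 0.83 (adjusted p = 0.0865), and S100a4, a marker of fibroblasts and migrating cells, 2.17 ± 1.76 (adjusted p = 0.472) and 3.21 ± 1.83 (adjusted p = 0.250). S100a8 and S100a9, the calprotectin subunits of neutrophils, were all but unread, with no count of the first in any kidney and 20 counts of the second in a single kidney of set A.

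Of the genes of membrane repair and annexin partners, 8 of 11 tested were higher in each set and none was lower. Their median log2 fold change was 1.01 for set A and 1.10 for set B, against -0.02 over all genes tested. Myof, which encodes the ferlin myoferlin, rose by 3.33 ± 0.21 for set A (adjusted p = 9.38e-10) and by 3.32 ± 0.21 for set B (adjusted p = 1.18e-09). Ahnak, the scaffold that binds the S100A10 and annexin A2 complex, rose by 2.01 ± 0.14 (adjusted p = 3.34e-09) and 2.11 ± 0.14 (adjusted p = 1.73e-09). Dysf (dysferlin) rose by 1.82 ± 0.19 and 1.96 ± 0.19, and Capn2, a calpain protease, by 1.62 ± 0.10 and 1.65 ± 0.10. Capn1, Capns1, Pdcd6ip and Chmp4b rose by between 0.58 and 1.26. Pdcd6, Vps4b and Sri did not pass, and Trim72 had too few counts to be tested.

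Among receptors and plasminogen activators of these proteins, 2 of 7 genes were tested, Plat and Plau, and neither was called. Fpr1 and Fpr2, the receptors of annexin A1, are listed at 0 in every kidney, and Ager, the receptor of several S100 proteins, had counts in 2 kidneys. Of the other EF-hand proteins, 4 of 9 were called higher in each set and none lower. Efhd2 had the largest rise, 2.03 ± 0.12 and 1.96 ± 0.12 on the log2 scale, followed by Rcn1 with 1.96 ± 0.26 and 1.58 ± 0.26. Calm2 rose by 0.81 ± 0.15 (adjusted p = 0.000421) and 0.92 ± 0.15 (adjusted p = 0.000115). Calu, the gene of calumenin in the secretory pathway, rose by 0.67 ± 0.13 (adjusted p = 0.000524) and 0.78 ± 0.13 (adjusted p = 0.000111).

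S100g belongs by function with the distal calcium transport genes. In set A 4 of 10 tested were lower and none higher, and among those of set B 5 were lower and 1, the calcium channel Trpv5, was higher. Calb1, the calbindin-D28k partner of S100g in distal transport, had 629 ± 102 CPM in the controls, 186 ± 127 CPM for set A and 153 ± 53.9 CPM for set B (SD, n = 4), and fell by 1.76 ± 0.32 (SE, adjusted p = 0.000385) and 2.04 ± 0.33 (adjusted p = 9.73e-05) on the log2 scale. Slc8a1 (the sodium-calcium exchanger), Vdr (the vitamin D receptor) and Kl (klotho) fell in both sets, with log2 fold changes between -3.20 and -1.16. Pvalb, the fifth for set B, is listed at 0 in all 4 kidneys of that set.

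**Figure D4:**
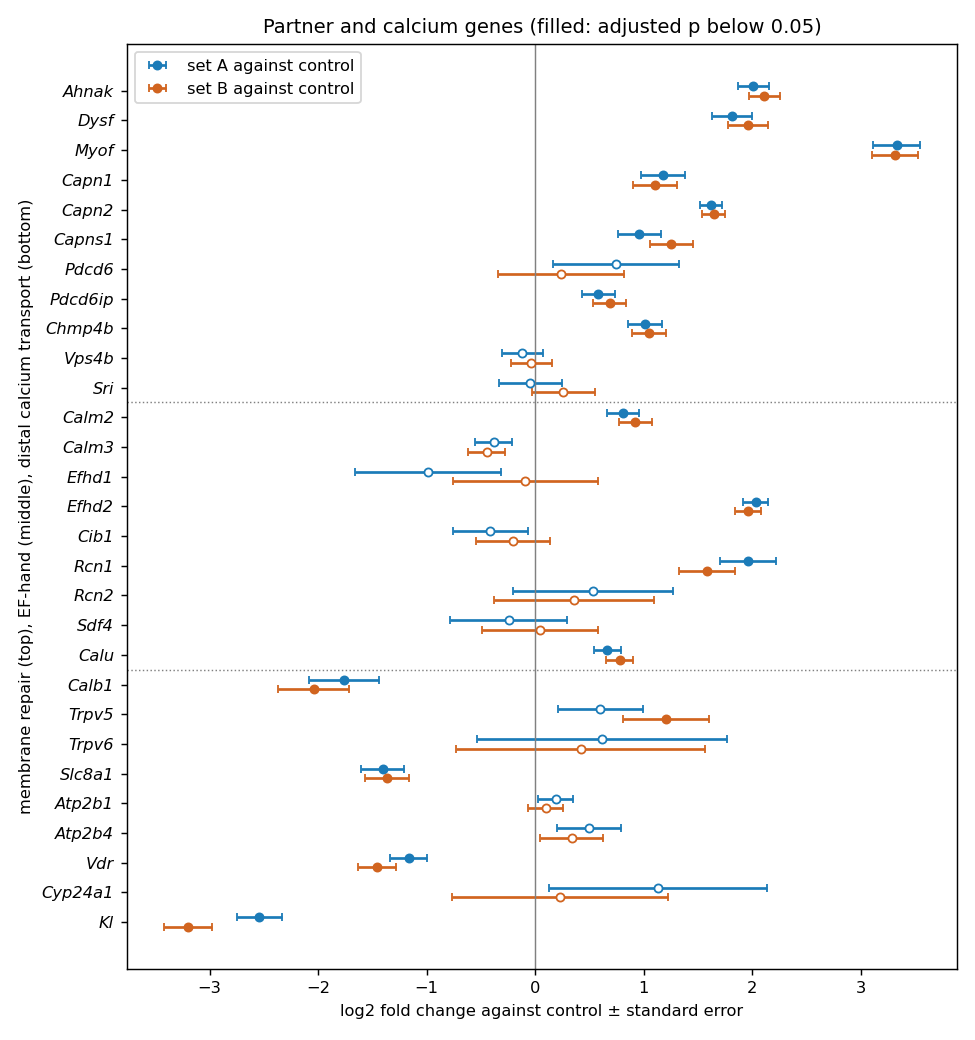
Log2 fold change against control, with the standard error as bars, of the tested genes of membrane repair (top), other EF-hand proteins (middle) and distal calcium transport (bottom, without Pvalb, which is at 0 for set B). Filled points have an adjusted p below 0.05, and they lie to the right in the upper groups and, apart from Trpv5 for set B, to the left in the lowest.

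Each member was also matched with the 2 genes whose control-centred log2 CPM profile over the 12 kidneys was nearest, by root-mean-square difference among 6449 genes of sufficient level. For Anxa2 these were Myof (0.18) and Samd5 (0.36). For Anxa4 they were Cttn (0.15) and Tnfaip1 (0.16), and for Anxa5 Smtn (0.16) and Grk6 (0.18). S100a6 was nearest to Clu (0.51) and Spp1 (0.58), S100a10 to Tinagl1 (0.58) and Pgd (0.61), and Anxa1 to Camkk2 (0.64) and Zdhhc15 (0.65). The scarce genes had no close match, with nearest differences of 1.04 for S100a11, 1.12 for S100a1, 1.39 for Anxa3 and 1.64 for S100g.

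Markers of other cells moved beside these genes. Tubular injury markers summed to 31.6 to 41.2 CPM in the controls, 734 to 1154 CPM for set A and 820.1 to 1593 CPM for set B, with 7 of 8 called higher in each set. Fibroblast and pericyte markers went from 482 to 623 CPM to 945 to 2651 CPM for set A and 1138 to 2394 CPM for set B, with 2 of 4 tested genes called, Col1a1 and Col1a2. Most of this sum was Col1a1, which averaged 369, 1444 and 1274 CPM, and the receptors Pdgfra, at 10.02, 7.55 and 6.91 CPM, and Pdgfrb, at 35.1, 46.2 and 39.9 CPM, did not pass. The urothelium list went from 9.12 to 16.7 CPM to 63.1 to 163 CPM and 74.4 to 270.2 CPM, and its keratin Krt5, which averaged 9.38, 117 and 148 CPM, carried this rise. The uroplakins were not called. Upk1a averaged 1.55, 0.451 and 0.0158 CPM, Upk1b 1.72, 1.07 and 1.27 CPM, and Upk3a 0.216, 0 and 0 CPM, and Upk2 is listed at 0 in every kidney. Leukocyte markers summed to 44.7 to 66.8 CPM in the controls, 9.46 to 26.0 CPM for set A and 13.2 to 34.2 CPM for set B, none of 5 tested genes higher and 2 lower, and of the 5 neutrophil markers in the table only S100a9 has a count. The leukocyte sum was mostly Csf1r, which averaged 52.1, 13.5 and 10.5 CPM, while Ptprc averaged 2.96, 3.84 and 4.39 CPM and did not pass. Podocyte markers went from 118 to 135 CPM to 134 to 252 CPM and 161 to 230.5 CPM, with 2 of 4, Wt1 and Podxl, called higher in each set. Thick ascending limb markers went from 1585 to 1682 CPM to 269 to 374 CPM and 257 to 739 CPM, with 1 of 3 called lower in each set. That gene, Slc12a1, averaged 1512, 179.5 and 256 CPM and carried the fall, while Umod, at 115, 128 and 128 CPM, was not called. Of 5 collecting duct markers, 2 were lower for set A and 1 for set B. Slc4a1, called in both sets, averaged 34.6, 7.86 and 4.40 CPM, and Atp6v1b1, called for set A only, 55.5, 26.9 and 34.8 CPM. Aqp2, at 12.99, 15.5 and 18.5 CPM on average, went the other way and was not called. Aqp3, at 83.9, 64.5 and 73.98 CPM, and Avpr2 were not called either. Of 5 distal tubule markers, 1 was lower in set A, and 2 were lower and 1 higher in set B, and none of 4 endothelial markers tested was called. The part of cell composition in the rise of the annexins and S100 genes was not tested. Overlapping transcripts are annotated for Anxa1, Anxa2 (the antisense Gm16144 among them), Anxa3, Anxa4, Anxa5 and S100g. The libraries were stranded, but the strand setting of the counting is not given in the sources used here.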

How the data were processed

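Stranded mRNA libraries of 12 mouse kidneys, 4 per group, were read as single reads of 100 bases, mapped to mm10 with STAR and counted per gene with HTSeq. The authors deposited raw counts of 23420 genes, without normalization. Versions, the annotation release, the strand setting and how duplicates were handled are not given in the sources used here. The replicate numbers of the titles did not pair the kidneys, and the study's methods count kidneys, so p-values measure the spread between these kidneys. No pair of kidneys in a group differed by as little as sampling noise.

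Testing used edgeR 4.0.16 (R 4.3.3). Its default filter (minimum count of 10, minimum total of 15) selected the genes, libraries were scaled by TMM, and 1 negative binomial model with 3 groups was fitted to all 12 kidneys. Quasi-likelihood F-tests were two-sided and adjusted by Benjamini-Hochberg over 11664 genes, and called below 0.05. The same model gave the standard errors. Log2 CPM used a prior count of 2. Exon lengths and positions came from the mm10 annotation (GENCODE) and promoters from RefSeq. The motifs, the partner ratios and the gene lists, like the 10 genes, were chosen with earlier results of these data known. All 10 genes were named, and of the other annexin, S100, partner, EF-hand and calcium genes those that passed in both sets or are known partners, while other genes of these and the marker lists were named after their values were seen, to account for the counts. Some items of the lists are not reported here, and every other gene counts in the totals given. Exact permutation tests were two-sided. Alternatives were DESeq2 1.42.0, RLE size factors, no filter, more than 1 CPM in at least 4 kidneys, 2 groups only, limma-trend (limma 3.58.1), a replicate block and leaving out each kidney. The procedure was tested on simulated counts. Other computations used Python 3.11.15, SciPy 1.17.1, NumPy 2.4.6 and pandas 2.3.3. Reads had no molecular identifiers, so the floor reflects counting error alone.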

Additional observations from a re-analysis of the deposited data

Results flagged for a closer look

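Of 42 sets of 4 kidneys examined for a kidney far from the others, 1 had one. The log2 ratio of S100a11 to Anxa1 counts in set B was 0.84 in the second kidney and between -1.14 and -0.83 in the other 3, so that the gap to the nearest took 0.847 of the range, above Dixon's critical value for 4. Chance gives about 1 such case in 20 sets, and 42 were examined, so 1 case is no more than chance would give. That kidney has the lowest Anxa1 level of set B, 5.19 CPM, and a S100a11 level of 9.36 CPM within the range of the others.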

How the results depend on the processing

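The rises of Anxa2, Anxa3, Anxa4, Anxa5 and S100a6 in both sets, of S100a10 in set A and of Anxa1 in set B passed under all 19 alternatives. The call of Anxa1 in set A passed under 5 of 19 (adjusted p from 0.0146 to 0.135) and that of S100a10 in set B under 13 of 19 (0.00934 to 0.172). S100a11 passed with limma-trend (adjusted p = 0.0157 in set A, 0.00875 in set B) and, in set B, with DESeq2 (0.0311). The members called higher numbered 6 to 7 (set A) and 6 to 8 (set B) when kidneys were left out in turn. Between the sets none was called under any alternative, while the calls over all genes went from 1 to 27 with DESeq2, 6 without the filter, 0 with limma-trend, 0 with 2 groups only and 0 to 7 without single kidneys. The causes were not tested.

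Values close to 0 changed sign without single kidneys. In set A, S100a1 ranged from -0.31 to 0.70 on the log2 scale. In set B, S100a1 ranged from -0.074 to 0.89 and S100g from -0.79 to 0.42. Between set B and set A the ranges were -0.10 to 0.15 for Anxa2, -0.42 to 0.33 for Anxa3, -0.068 to 0.058 for Anxa5, -0.18 to 0.63 for S100a1 and -0.0054 to 0.23 for Anxa11, and Anxa2 was -0.011 with limma-trend. The correlation of S100a11 with Anxa1 was -0.23, and that of S100a6 with Anxa11 0.48, without the 2 kidneys farthest from the median. The correlation of S100a6 with Anxa11 was -0.77 with each set centred (permutation across the sets, p = 0.0238, unadjusted and not exact for centred values). Without single kidneys, the difference of the S100a11 to Anxa1 ratio from control ranged from 0.14 to 2.93 (set A) and from -0.77 to 2.02 (set B), lowest without the second control.

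With the replicate number as a block, 6 members were called higher in set A (Anxa1 had an adjusted p of 0.121) and 7 in set B, of 2491 and 2531 genes in all. The block gave -0.0022 for Anxa2 and -0.070 for S100a1 between the sets, and ended no other call of a member. The numbers did not pair the kidneys, since deviations of same-numbered kidneys correlated between -0.055 and 0.045.

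Precision is limited for S100g, S100a1, S100a11 and Anxa3, which have 0 counts in 1 or more kidneys.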
